A study of Gallus gallus with 21 samples.

Results

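The change of the chicken cerebrum between embryonic days 12 and 16 is described here from 6 of the 21 libraries of the series, 3 at E12 and 3 at E16. They were chosen by the stage in their labels. Each library came from the cerebrum of 1 female Tibetan chicken embryo, sexed by PCR, from eggs incubated under the same regime. No treatment or genotype was compared, so the groups differ in embryonic age. The study followed the cerebrum through 8 stages from E12 to hens of several years, and 18 libraries at 7 stages were analysed here. Total RNA depleted of ribosomal RNA was sequenced, and 14558 mRNAs and 39907 long non-coding RNAs (lncRNAs) were listed with their expression level as log2(FPKM+1). FPKM is a fragment count divided by transcript length and by the size of the library. The files hold no read counts, so the depth behind a single value is unknown.

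The cerebrum of birds is the dorsal and ventral forebrain that holds the pallium and the striatum. By the middle of incubation many of its neurons have left the cell cycle, and the later embryonic days bring dendrites, synapses, glia and the first myelin. LncRNAs are long transcripts without an evident protein-coding frame, and in brain they are commonly weaker and more restricted to a stage or cell type than mRNAs. The files list mRNAs by Ensembl identifier and chromosome of the build Gallus_gallus-5.0, and lncRNAs by a TU identifier of the study. Of the mRNA identifiers, 0 could be matched to a gene symbol, so no function is given for any of them, and the tissue could not be checked against marker genes. As the tissue was measured in bulk, fewer cells of a type and less RNA per cell cannot be told apart.

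E16 replicate 3 stood apart from E16 replicates 1 and 2. It differed from the mean of those libraries by at least 2-fold in 1890 mRNAs (13%), 1069 higher and 821 lower. The same measure gave 452 mRNAs for E16 replicate 1, 417 for E16 replicate 2 and between 203 and 251 for the E12 libraries. Across the 14558 mRNAs, Pearson's r was 0.988 between E16 replicates 1 and 2 and 0.92 on average between replicate 3 and these 2. It averaged 0.976 among the E12 libraries, 0.939 between E16 replicate 3 and E12, and 0.926 between E16 replicates 1 and 2 and E12. By this measure E16 replicate 3 was closer to the E12 libraries than to the other libraries of its own stage. With the D100 libraries r averaged 0.888 for E16 replicate 3, 0.855 for E16 replicates 1 and 2 and 0.854 for E12. With E20 replicate 1 it was 0.901 for E16 replicate 3 and 0.886 for E16 replicates 1 and 2. With E20 replicate 2 these values were 0.889 and 0.930. These correlations are over mRNAs of single libraries and are a description. In lncRNAs, replicate 3 differed by at least 2-fold from its stage mates in 1558, against 758 to 938 for each of the other 5 libraries.

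**Figure D1:**
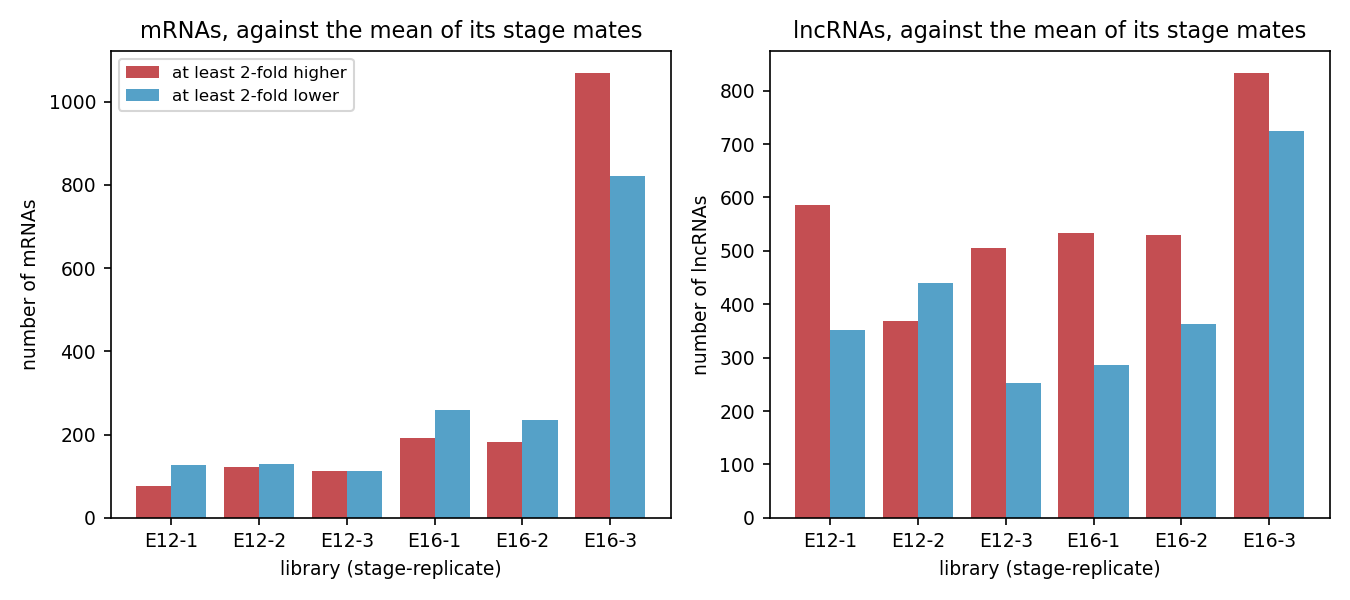
Number of mRNAs (left) and lncRNAs (right) in which each library (horizontal axis, stage and replicate) was at least 2-fold higher or lower than the mean of the other 2 libraries of its stage. E16 replicate 3 has the tallest bars in both panels, with 1069 mRNAs higher and 821 lower.

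The mitochondrial share also set this library apart. Mitochondrial mRNAs took 1.66% of the summed mRNA FPKM in E16 replicate 3, against 0.783% and 0.807% in the other E16 libraries and 0.535% to 1.08% at E12. The most abundant mRNA, ENSGALG00000017926, took 24.7% to 29.9% of the sum at E12 and 27.8% to 29.5% at E16. Between 34 and 37 of the 37 mRNAs of the female-specific chromosome W had a value above 0 in each of the 6 libraries. A value was listed for 17534 to 20975 lncRNAs at E12 and for 15929 to 18260 at E16 (two-sided exact permutation test, p = 0.5, where 3 against 3 libraries cannot go below 0.1). In these last 3 measures E16 replicate 3 lay within the range of the other 5 libraries. The summed FPKM of the W mRNAs lay outside it, with 413 in E16 replicate 3. That sum was 466 in both other E16 libraries and 482 to 516 at E12. The part of the mitochondrial share in the results was not tested. The count of lncRNAs with a value was lowest in E16 replicate 2, which had the fewest clean reads of the 6 libraries. It was highest in E12 replicate 3, which had the most. The part of the read totals in this count was not tested. The counts of calls are given with and without E16 replicate 3. For single features the difference without it is given for some only.

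At a change of at least 2-fold with a Bonferroni-adjusted p of at most 0.05, 23 mRNAs were called, which was 0.158% of the mRNAs tested with limma. Of these, 8 rose (0.055%) and 15 fell (0.103%) from E12 to E16. In all 23 the libraries of the stages did not overlap, which held for 32.2% of all mRNAs. The calls themselves favour such a separation, so the 32.2% is not a like background. These calls used E16 replicate 3, which moved the same way as replicates 1 and 2 in each of the 23, by more than they did in 6 of the rises and 6 of the falls. When E16 replicate 3 was left out, 9 of the 23 were called again, 2 that rose and 7 that fell. A fit of the 6 libraries alone called 3 mRNAs at this threshold and 432 when the p-values were adjusted by Benjamini and Hochberg's method, against 361 with all stages.

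Among the rises, ENSGALG00000018942 on chromosome 24 had the highest level. Its log2(FPKM+1) was 6.12, 6.09 and 6.56 at E12 and 8.15, 8.40 and 9.98 at E16. All E16 libraries lay above all E12 libraries, with replicate 3 the highest. The level rose by 2.59 ± 0.37 (SE, Bonferroni-adjusted p = 0.0465) on this scale, or by 2.02 ± 0.25 (adjusted p = 0.0151) without replicate 3. In FPKM the means were 76.3 and 544. The level was 10.32 and 10.01 in the E20 libraries and averaged 11.15 at D100, above the E16 libraries, and 7.51 at Y3.

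ENSGALG00000005360 on chromosome 19 had 2.08, 2.43 and 1.71 at E12 and 4.48, 4.02 and 4.47 at E16. The E16 libraries were close to each other, and replicate 3 was level with replicate 1. The rise of 2.25 ± 0.26 (adjusted p = 0.0031) was 2.18 ± 0.29 (adjusted p = 0.0329) without replicate 3. This mRNA and ENSGALG00000018942 were the rises called in both fits.

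The Z-linked ENSGALG00000027374 had 1.27, 1.22 and 1.36 at E12 against 3.41, 3.27 and 4.67 at E16. Replicate 3 was again the highest, and the stages did not overlap. The rise of 2.50 ± 0.35 (adjusted p = 0.0433) became 2.05 ± 0.31 without replicate 3, with an adjusted p of 0.128. The Benjamini-Hochberg adjusted p was 0.00208 in both fits. ENSGALG00000010901 on chromosome 2 went from 0.31, 0.21 and 0.19 to 1.86, 1.46 and 1.91. It was nearly silent at E12, and its level averaged 4.94 at D100 and 5.53 at Y1, above every E16 library. Its rise of 1.51 ± 0.21 (adjusted p = 0.0292) was not called without replicate 3 (1.43 ± 0.23, adjusted p = 0.227).

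The other 4 rises were smaller. ENSGALG00000032930 (chromosome 9) rose by 1.37 ± 0.18, ENSGALG00000026005 (chromosome 5) by 1.36 ± 0.19, ENSGALG00000039769 (an unplaced scaffold) by 1.20 ± 0.17 and ENSGALG00000009379 (chromosome 9) by 1.01 ± 0.14. Their adjusted p-values were between 0.0174 and 0.0494, and between 0.15 and 0.302 without replicate 3. The course after E16 differed among them. ENSGALG00000026005 had 7.51 and 7.5 at E20, above its 5.73, 5.85 and 5.78 at E16, whereas ENSGALG00000032930 had 4.50 and 4.97 at E20, below its 5.41, 5.41 and 5.86 at E12.

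Among the falls, ENSGALG00000028145 on chromosome 3 changed most. Its level was 3.13, 3.54 and 2.81 at E12 and 0.67, 0.38 and 0 at E16, where replicate 3 was listed at 0. The difference was -2.81 ± 0.37 (adjusted p = 0.0199), and -2.63 ± 0.41 (adjusted p = 0.211) without replicate 3. ENSGALG00000031031 on chromosome 5 had 4.48, 4.91 and 4.14 at E12 and 1.94, 1.47 and 2.24 at E16. Here replicate 3 was the E16 library nearest to E12, and the fall of -2.63 ± 0.32 (adjusted p = 0.00828) was called without it as well (-2.81 ± 0.35, adjusted p = 0.0175).

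ENSGALG00000009041 on chromosome 3 had the smallest adjusted p of the 23. Its level was 5.62, 5.51 and 5.05 at E12 and 3.17, 3.03 and 3.29 at E16, a difference of -2.23 ± 0.24 (adjusted p = 0.00113). The E16 libraries were close to each other in this mRNA, and the call held without replicate 3 (adjusted p = 0.00598). ENSGALG00000013616, also on chromosome 3, had 6.48, 6.03 and 6.32 at E12 and 3.58, 3.66 and 4.48 at E16. Replicate 3 had the smaller fall, and the difference went from -2.37 ± 0.28 (adjusted p = 0.00412) to -2.66 ± 0.27 (adjusted p = 0.00103) without it.

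The other falls that were called in both fits were those of abundant mRNAs. ENSGALG00000002993 (chromosome 18) fell from a mean of 84.1 to 31.2 FPKM, ENSGALG00000012222 (chromosome 4) from 148 to 59.3 FPKM, ENSGALG00000005145 (chromosome 20) from 95.8 to 40.5 FPKM and ENSGALG00000009850 (chromosome 5) from 169 to 78.6 FPKM. Their differences on the log2(FPKM+1) scale lay between -1.42 and -1.11, and E16 replicate 3 was in each the E16 library nearest to E12.

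The 7 remaining falls were not called without replicate 3. The Z-linked ENSGALG00000015721 had 4.83, 3.47 and 4.41 at E12 and 1.83, 1.89 and 1.55 at E16. Its difference was -2.48 ± 0.29 (adjusted p = 0.00481), and its adjusted p without replicate 3 was 0.0511. ENSGALG00000025557 (chromosome 4) fell by 2.24, ENSGALG00000031058 (chromosome 18) by 2.16, ENSGALG00000000542 (chromosome 23) by 1.49, ENSGALG00000031527 (chromosome 1) by 1.46, ENSGALG00000002864 (chromosome 6) by 1.27 and ENSGALG00000029890 (an unplaced scaffold) by 1.24. In these 6 the adjusted p was between 0.0202 and 0.0417 with all libraries and between 0.059 and 0.324 without replicate 3.

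**Figure D2:**
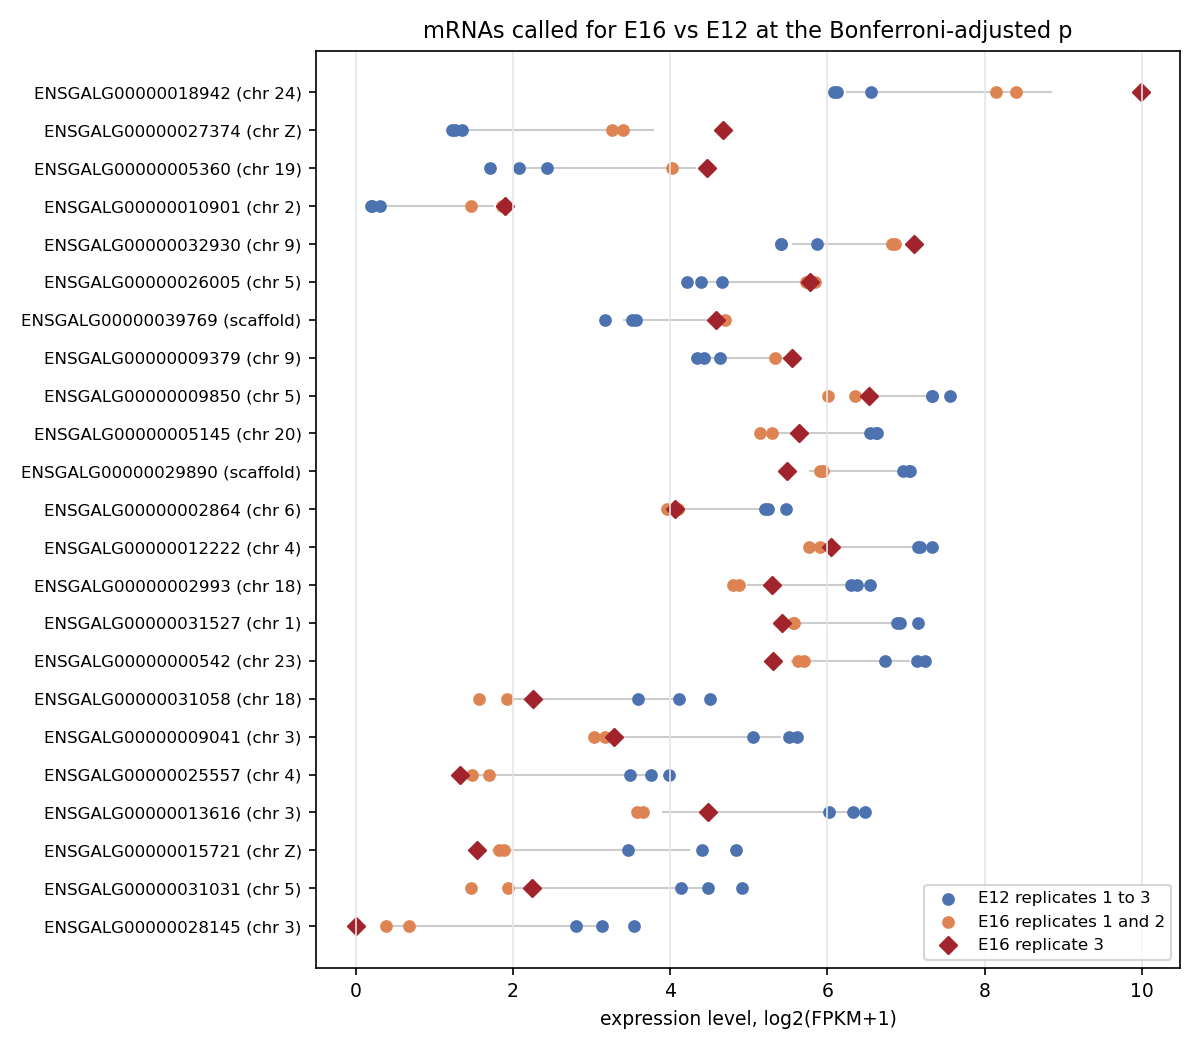
Expression level in log2(FPKM+1) of the 23 mRNAs called at the Bonferroni-adjusted p (rows, with chromosome) in each of the 6 libraries. Blue points are E12 replicates, orange points E16 replicates 1 and 2, and the red diamond E16 replicate 3, and grey lines join the stage means. The stages do not overlap in any row, and in ENSGALG00000018942 the diamond lies to the right of both orange points.

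With the p-values adjusted by Benjamini and Hochberg's method, 361 mRNAs were called (2.48%), 153 that rose (1.05%) and 208 that fell (1.43%). With 0.1 instead of 1 added to the FPKM, 182 rose and 182 fell. The libraries of the stages did not overlap in 149 of the 153 rises and all 208 falls. Over all mRNAs the shares in those directions were 15.7% and 16.4%, but the calls themselves favour such a separation. The median level of the mRNAs that rose went from 3.01 at E12 to 4.56 at E16, and that of the mRNAs that fell from 4.75 to 3.25. E16 replicate 3 moved in the called direction in all 361, which the calls favour because they used this library. It moved by less than 0.5 of the shift of replicates 1 and 2 in 28 of the rises and 46 of the falls.

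The largest falls of this wider list showed the libraries of E16 at a low level together. ENSGALG00000036530 on chromosome 5 had 4.80, 4.85 and 4.70 at E12 and 1.53, 1.24 and 0.49 at E16. All E16 libraries were far below E12, with replicate 3 the lowest, and the difference was -3.69 ± 0.58 (Benjamini-Hochberg adjusted p = 0.00359). At E20 its level was 5.24 and 5.07, at or above that of E12, so in these libraries E16 was a minimum. ENSGALG00000029270 (chromosome 1) had 5.32, 4.42 and 4.89 at E12 and 1.81, 2.05 and 1.35 at E16, a difference of -3.14 ± 0.75 (adjusted p = 0.0307). Its E20 libraries had 3.29 and 0, so they differed from each other by more than the E16 libraries did.

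In other large falls replicate 3 kept part of the E12 level. ENSGALG00000039553 on chromosome 2 had 6.86, 7.28 and 6.75 at E12 and 3.38, 3.23 and 6.11 at E16. Replicate 3 lay much nearer to the E12 libraries than to the other E16 libraries. The difference was -2.72 ± 0.57 (Benjamini-Hochberg adjusted p = 0.0158) with all libraries, and -3.65 ± 0.35 (Bonferroni-adjusted p = 0.000618) without replicate 3. ENSGALG00000002223 on chromosome 8 had 6.33, 6.21 and 6.23 at E12 and 2.96, 2.48 and 4.12 at E16, a difference of -3.07 ± 0.78 (Benjamini-Hochberg adjusted p = 0.0392). Of the 10 largest falls, ENSGALG00000027498 (-2.81 ± 0.58), ENSGALG00000007419 (-2.66 ± 0.45), ENSGALG00000026453 (-2.54 ± 0.51) and ENSGALG00000036089 (-2.54 ± 0.57) also had replicate 3 as the E16 library nearest to E12.

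In the 10 largest rises without overlap of the stages, replicate 3 was the highest E16 library in 3 and the lowest in 6. It was between the others in 1, ENSGALG00000005360. That rule keeps only rises in which replicate 3 lay above every E12 library. It left out the larger rise of ENSGALG00000032453 (4.49 ± 1.02), which is described below. In ENSGALG00000028451 on chromosome 11 replicate 3 was the highest, with 1.38, 1.66 and 1.52 at E12 and 3.82, 4.37 and 6.04 at E16 (3.22 ± 0.62, Benjamini-Hochberg adjusted p = 0.0108). In ENSGALG00000003457 on chromosome 27 it was the lowest, with 3.77, 4.81 and 3.97 at E12 and 7.66, 7.69 and 5.12 at E16 (2.64 ± 0.71, adjusted p = 0.0482). In this mRNA replicate 3 was only a little above the highest E12 library. ENSGALG00000042263 on chromosome 1 had 6.30, 6.41 and 6.46 at E12 and 9.11, 9.31 and 7.36 at E16 (2.2 ± 0.49, adjusted p = 0.0218). Without replicate 3 the rise was 2.58 ± 0.61 in ENSGALG00000028451, 3.49 ± 0.64 in ENSGALG00000003457 and 2.82 ± 0.43 in ENSGALG00000042263.

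ENSGALG00000013034 (chromosome 1) rose by 2.48 ± 0.61, with 4.55 and 4.69 in E16 replicates 1 and 2 and 1.99 in replicate 3. Its rise was 3.36 ± 0.49 without replicate 3. ENSGALG00000030886 (chromosome 17) rose by 2.45 ± 0.58 and averaged 9.18 at D100 and 10.06 at Y1, well above its 4.99, 5.05 and 4.31 at E16. ENSGALG00000042490 (an unplaced scaffold) rose by 2.34 ± 0.60, with E12 values of 0.16, 2.62 and 0.17, so the E12 libraries differed from each other. ENSGALG00000004154 (chromosome 20) was listed at 0 in all E12 libraries and had 4.01, 4.12 and 0.74 at E16.

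Without E16 replicate 3, many more mRNAs were called. The Benjamini-Hochberg count was 932 (6.40%), 424 that rose (2.91%) and 508 that fell (3.49%), and 319 of these were among the 361 called with all libraries. The Bonferroni count was 41 (0.282%), 16 that rose (0.110%) and 25 that fell (0.172%), of which 9 were called with all libraries. Leaving out any other E12 or E16 library lowered the Benjamini-Hochberg count to between 97 and 218 and the Bonferroni count to between 4 and 8.

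A library that was left out can be set against calls that did not use it. Of the 932 mRNAs called without E16 replicate 3, this library itself was at least 2-fold from the E12 mean in the called direction in 200 (21.5%), was on the called side of E12 in 686, and was on the other side in 245. The median size of these 932 changes was 1.38 in the libraries fitted and 0.41 in replicate 3. For E16 replicate 1 and E16 replicate 2 the share past 2-fold was 68.0% of 178 and 91.8% of 97 calls made without them. For the E12 libraries it was between 65.6% and 86.7%, from 98 to 218 calls. These shares are not from like sets of calls. Calls made without any of the other libraries used replicate 3, which favours changes that it shares. Most of the 932 changes called from E16 replicates 1 and 2 were below 2-fold in replicate 3.

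**Figure D3:**
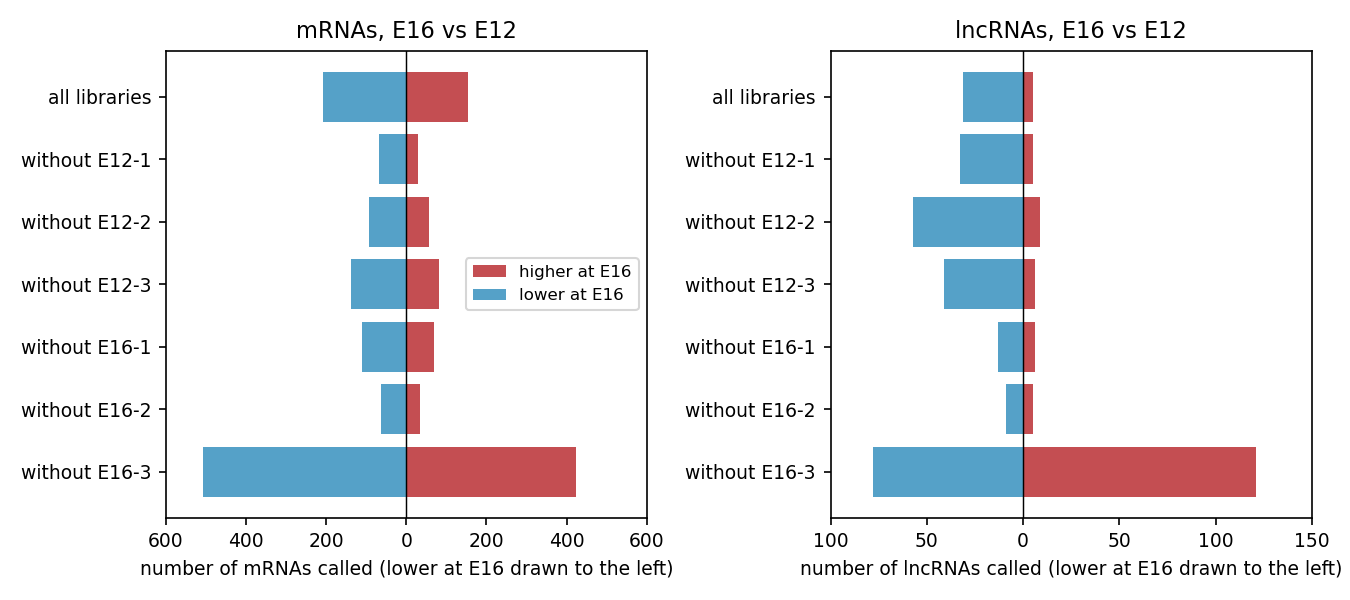
Number of mRNAs (left) and lncRNAs (right) called at the Benjamini-Hochberg adjusted p with all libraries and with each E12 or E16 library left out. Bars to the right count features higher at E16 and bars to the left features lower at E16. Only the bars without E16 replicate 3 are longer than those of all libraries for mRNAs, with 424 higher and 508 lower.

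**Figure D4:**
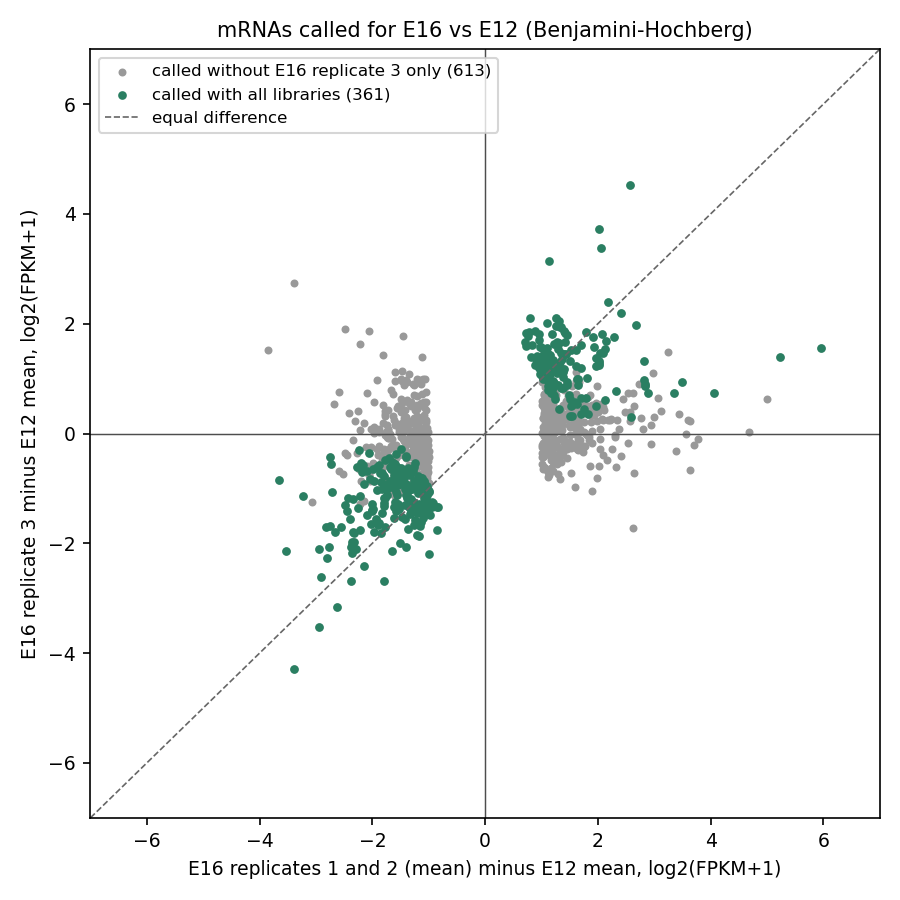
Difference from the E12 mean in log2(FPKM+1) of E16 replicates 1 and 2 (horizontal axis) and of E16 replicate 3 (vertical axis), for mRNAs called at the Benjamini-Hochberg adjusted p. Green points are the 361 called with all libraries and grey points the 613 called only without replicate 3, and the dashed line marks equal differences. The grey points, chosen as not called once replicate 3 was used, spread around 0 on the vertical axis. The green points, whose calls used replicate 3, lie on the same side of 0 on both axes.

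Some mRNAs were called at the Bonferroni-adjusted p only without replicate 3. This rule favours mRNAs in which replicate 3 differed, so they show its place in single mRNAs and not how far it differed in general. ENSGALG00000032453 on chromosome 2 had the largest difference of these, with 3.01, 5.99 and 2.78 at E12 and 9.80, 9.95 and 5.48 at E16. Replicate 3 lay inside the E12 range and replicates 1 and 2 far above it. The difference was 5.95 ± 0.81 (Bonferroni-adjusted p = 0.0424) without replicate 3 and 4.49 ± 1.02 (Bonferroni-adjusted p = 1, Benjamini-Hochberg adjusted p = 0.0242) with it. Its E20 libraries had 9.80 and 8.57.

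ENSGALG00000021592 on chromosome 19 had 1.74, 2.80 and 2.32 at E12 and 5.64, 5.69 and 1.97 at E16. Here too replicate 3 was inside the E12 range, and the rise of 3.38 ± 0.38 (Bonferroni-adjusted p = 0.00358) became 2.15 ± 0.71 (adjusted p = 1) with it. ENSGALG00000012357 on chromosome 7 had 3.54, 3.64 and 3.74 at E12 and 6.26, 6.25 and 1.92 at E16, where replicate 3 was below all E12 libraries. ENSGALG00000017274 (chromosome 1) had 3.72, 3.67 and 1.42 at E16 against 0.97 to 1.23 at E12, and ENSGALG00000004154, described above, had its replicate 3 value nearest to the E12 libraries as well.

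The falls of this kind were similar in form. ENSGALG00000015895 on chromosome 3 had 6.82, 7.14 and 6.77 at E12 and 4.18, 4.14 and 6.48 at E16. Replicate 3 was just below the lowest E12 library. ENSGALG00000029235 (chromosome 2) had 5.99, 5.62 and 5.61 at E12 and 2.94, 3.06 and 5.18 at E16. ENSGALG00000029195 (chromosome 13) had 1.53, 1.61 and 2.68 at E16 against 4.03 to 4.79 at E12, and ENSGALG00000042216 (chromosome 1) had 1.80, 1.94 and 3.12 against 4.19 to 4.45. In the last pair replicate 3 was between the other E16 libraries and E12. Of the 5 rises and 5 falls of this kind, 8 were called at the Benjamini-Hochberg adjusted p with all libraries, with adjusted p-values of 0.00359 to 0.0466. The exceptions were ENSGALG00000021592 (0.0931) and ENSGALG00000012357 (0.428).

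The mRNAs in which replicate 3 departed from its stage mates were not only those in which it was nearer to the E12 libraries. Of the 1069 in which it was at least 2-fold higher, 552 were nearer to the E12 mean in replicate 3 than in replicates 1 and 2, and 517 were farther. Of the 821 in which it was lower, 548 were nearer and 273 farther. The median level of the 1069 was 3.42 at E12, 2.62 in E16 replicates 1 and 2 and 4.14 in replicate 3. The median of the 821 was 3.06 at E12, 4.11 in replicates 1 and 2 and 2.57 in replicate 3. Both sets were chosen by the difference of replicate 3 from replicates 1 and 2. That choice by itself favours an E12 median between them, so these medians do not show that replicate 3 passed E12.

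The following mRNAs were chosen after their values were seen, among those with the largest departures of replicate 3. ENSGALG00000015143 on chromosome 2 had 10.90, 10.84 and 11.58 at E12 and 3.40, 1.68 and 12.35 at E16. It was among the abundant mRNAs in replicate 3 and in all E12 libraries and low in E16 replicates 1 and 2, and its E20 libraries had 7.23 and 0.26. ENSGALG00000012908 on chromosome 1 had 4.22, 4.56 and 4.96 at E12, was listed at 0 in E16 replicates 1 and 2, and had 6.12 in replicate 3. ENSGALG00000019026 on chromosome 4 had 5.54, 0.65 and 4.0 at E12, was listed at 0 in E16 replicates 1 and 2 and had 6.13 in replicate 3.

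In the other direction, ENSGALG00000004320 on chromosome 13 had 0, 0.16 and 0.25 at E12, 5.75 and 5.76 in E16 replicates 1 and 2, and 0.40 in replicate 3. Its E20 libraries had 0.25 and 6.2, so they were split in the same manner as those of E16. ENSGALG00000012285 on chromosome 1 had 0.29 to 0.78 at E12, 5.29, 5.22 and 0.61 at E16, and 1.26 and 6.57 at E20. ENSGALG00000036560 (an unplaced scaffold) had 6.44, 6.12 and 0.20 at E16 and 1.80 and 7.49 at E20. With all libraries, none of these 6 mRNAs was called by limma between E12 and E16. Without replicate 3, ENSGALG00000012285 was called higher at E16 (Benjamini-Hochberg adjusted p = 0.0468) and ENSGALG00000019026 lower (adjusted p = 0.0469).

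Libraries within E20 and within D100, which share none with E16, also differed from each other in part along the same mRNAs. The difference between E16 replicate 3 and the mean of E16 replicates 1 and 2 correlated with that between E20 replicates 1 and 2 with r = 0.40 across the 14558 mRNAs. With the 3 differences among D100 libraries, each taken as the lower minus the higher replicate number, r was between 0.22 and 0.34, and with those among E12 libraries between -0.01 and 0.08. Among the Y1 libraries it was between -0.14 and -0.06. Of the 1890 mRNAs that set E16 replicate 3 apart, 523 differed at least 2-fold between the E20 libraries, 469 of them with E20 replicate 1 on the side of E16 replicate 3. Between D100 replicates 1 and 3, the pair with the highest r, there were 784, of which 691 had replicate 1 on that side. Y1 replicate 3 differed at least 2-fold in 291 of the 1890 from Y1 replicate 1 and in 280 from Y1 replicate 2. It was on the side of E16 replicate 3 in 206 and 198. Y1 replicates 1 and 2 differed in 30. Among the E12 libraries there were 83 to 120 for a pair. The share of all 14558 mRNAs that differed 2-fold in each pair was not computed, so these counts have no background beside them. The order of the libraries in a pair is arbitrary, so only the size of these correlations and splits can be compared. The mRNAs share the library as their source, so these correlations are given as a description.

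The E20 libraries were set beside these changes. The E20 mean was nearer to E16 than to E12 in 166 of the 208 mRNAs that fell (79.8%) and in 83 of the 153 that rose (54.2%), against 53.9% of all mRNAs. The 53.9% covers both directions together, so it is not a like background for either. The median mRNA level was 3.40 and 3.47 in the E20 libraries, and 3.52 to 3.57 in those of E12 and E16. The part of this difference in the shares was not tested. Of the mRNAs called only without E16 replicate 3, it was nearer to E16 in 228 of 314 falls (72.6%) and 145 of 299 rises (48.5%). E20 replicate 2 was at least 2-fold from the E12 mean in the called direction in 176 of these falls and 118 of these rises, and E20 replicate 1 in 78 and 70.

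The mRNAs called were spread over the chromosomes. Among the chromosomes with at least 100 mRNAs, the share called at the Benjamini-Hochberg adjusted p was lowest on chromosome 22 (0.909%, 1 of 110) and highest on chromosome 12 (3.75%, 12 of 320), beside 2.48% over all. On chromosome Z it was 1.25%, with 1 rise and 7 falls among 640 mRNAs. None of the 37 mRNAs of chromosome W and none of the 30 mitochondrial mRNAs was called by limma, and none reached 2-fold at an unadjusted p under 0.05. At that p and any size of change there were 8 and 2, beside 21.0% of all mRNAs. On chromosomes 1 to 10, 80 rose and 138 fell of 8153, and on chromosomes 21 to 33, which are small, 29 rose and 14 fell of 1645. Over all mRNAs of those small chromosomes, called or not, 58.0% had a positive difference, against 47.8% on chromosomes 1 to 10. Without replicate 3 the small chromosomes had 50 rises and 43 falls and chromosomes 1 to 10 had 261 and 322. By level, the share called was 0.232% of the mRNAs with a mean log2(FPKM+1) below 1, and between 2.02% and 3.66% in the higher classes of level.

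Few lncRNAs were called. Of the 32013 with a value in at least 2 libraries, 5 were called at the Bonferroni-adjusted p (0.0156%), 2 that rose (0.00625%) and 3 that fell (0.00937%). At the Benjamini-Hochberg adjusted p 36 were called (0.112%), 5 that rose (0.0156%) and 31 that fell (0.0968%). The stages did not overlap in any of the 36, which the calls themselves favour. Of the lncRNAs tested this held for 9.94%, 3.52% with E16 higher and 6.42% with E16 lower. All 36 were called again without E16 replicate 3 at the Benjamini-Hochberg adjusted p. Of the 5 Bonferroni calls, the 2 rises were called again and the 3 falls were not. A fit of the 6 libraries alone called 0 lncRNAs at either adjusted p, with 113 higher and 265 lower at an unadjusted p of at most 0.05 and at least 2-fold. The Benjamini-Hochberg count was 10 with median-ratio scaling of the libraries. It was between 14 and 66 with a library other than E16 replicate 3 left out. With missing values left missing it was 5, of the 20641 lncRNAs that could then be tested.

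TU141795 had the smallest p of all features, which rests on missing values taken as 0 at E12 and in most later libraries. It was without a value in the 3 E12 libraries and had 3.36, 3.63 and 4.24 at E16 (Bonferroni-adjusted p = 8.79e-07). It was without a value at E20, Y1, Y3 and Y5 and averaged 0.15 at D100, so a level above 3 was seen at E16 alone. TU48631 was likewise without a value at E12 and had 3.32, 3.06 and 2.38 at E16 (adjusted p = 0.00114). It differed from TU141795 in its later course, with 2.69 and 2.75 at E20 and means between 2.1 and 2.83 at D100 and in the adult hens. In both, all E16 libraries were above the E12 libraries whether or not replicate 3 was counted.

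The other 3 rises at the Benjamini-Hochberg adjusted p were also of lncRNAs without a value at E12. TU158798 had 3.11, 3.61 and 3.07 at E16, TU117759 had 1.89, 2.37 and 3.35, and TU80170 had 1.79, 2.24 and 0.68. Of these TU117759 was higher at E20, with 4.61 and 4.69, while TU158798 had 3.30 in E20 replicate 1 and no value in E20 replicate 2. No fold is given for these 5, since the E12 libraries held no value. With missing values left missing they could not be tested.

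The 31 falls at the Benjamini-Hochberg adjusted p had a median level of 2.15 at E12 and 0.22 at E16. On this scale a 2-fold fall needs a level of at least 1 at E12. TU42748 had 3.33, 3.21 and 3.53 at E12, 0.94 in E16 replicate 1 and no value in the other E16 libraries. The difference was -3.04 ± 0.38 (Bonferroni-adjusted p = 0.0196). TU67074 had 3.84, 3.59 and 3.36 at E12 and 0.51, 1.11 and 1.10 at E16, a difference of -2.69 ± 0.35 (adjusted p = 0.0329). TU86288 had 1.49, 1.53 and 1.35 at E12 and no value in any E16 library (adjusted p = 0.0212), and it had no value at E20 or D100 either. In each of these the E16 libraries were low together, replicate 3 included.

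TU42747 and TU42749, whose identifiers are next to that of TU42748, were among the 31 falls. TU42749 had 3.22, 3.14 and 3.97 at E12 and 0.74, 0 and 0.35 at E16, and TU42747 had 3.86, 4.10 and 4.25 at E12 and 1.16, 1.88 and 2.04 at E16. TU5057 and TU5059 also fell, by 1.52 and 1.61. TU42747, TU5057 and TU5059 were chosen after their values were seen. Whether such transcripts share a locus was not analysed here, so they may not be separate cases. TU141788 had 3.44, 2.53 and 3.61 at E12 and 0.21, 0.07 and 0.12 at E16 and was back at a mean of 2.93 at D100 and 3.55 at Y1. TU162533 had 2.07, 3.15 and 2.59 at E12 and no value in the E16 libraries.

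Without E16 replicate 3, 24 lncRNAs were called at the Bonferroni-adjusted p (0.0750%), all of them higher at E16, and 199 at the Benjamini-Hochberg adjusted p (0.622%), 121 higher (0.378%) and 78 lower (0.244%). Of the 199, replicate 3 itself was at least 2-fold from the E12 mean in the called direction in 48 (24.1%), against 43.9% to 78.9% for the other libraries. The calls made without those other libraries used replicate 3, so these shares are not from like sets. Of the 24, replicate 3 was past 2-fold in 2, which are TU141795 and TU48631. TU87696 was without a value at E12, had 3.05 and 3.33 in E16 replicates 1 and 2 and was without a value in replicate 3. TU10947 had at most 0.30 at E12 and 3.51, 2.72 and 0.48 at E16. TU115228 had 4.31 and 4.20 in E16 replicates 1 and 2, no value in replicate 3 and at most 0.41 at E12.

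TU96034 and TU35278 had the same form, with 2.79 and 2.74 and with 2.36 and 2.50 in E16 replicates 1 and 2, and with no value and 0.09 in replicate 3. Of the 116 lncRNAs that were called higher only without replicate 3, the E20 mean was nearer to E16 in 21 (18.1%), against 49.4% of all lncRNAs tested. Of the 47 called lower only without it, the E20 mean was nearer to E16 in 41 (87.2%). A level near 0 at E20 counts toward E12 in a rise and toward E16 in a fall. The E20 libraries listed a value for 13480 and 16146 lncRNAs. Of all lncRNAs tested, 15817 were nearer to E16, 12922 nearer to E12 and the others ties, so the 49.4% is not a like background.

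**Figure D5:**
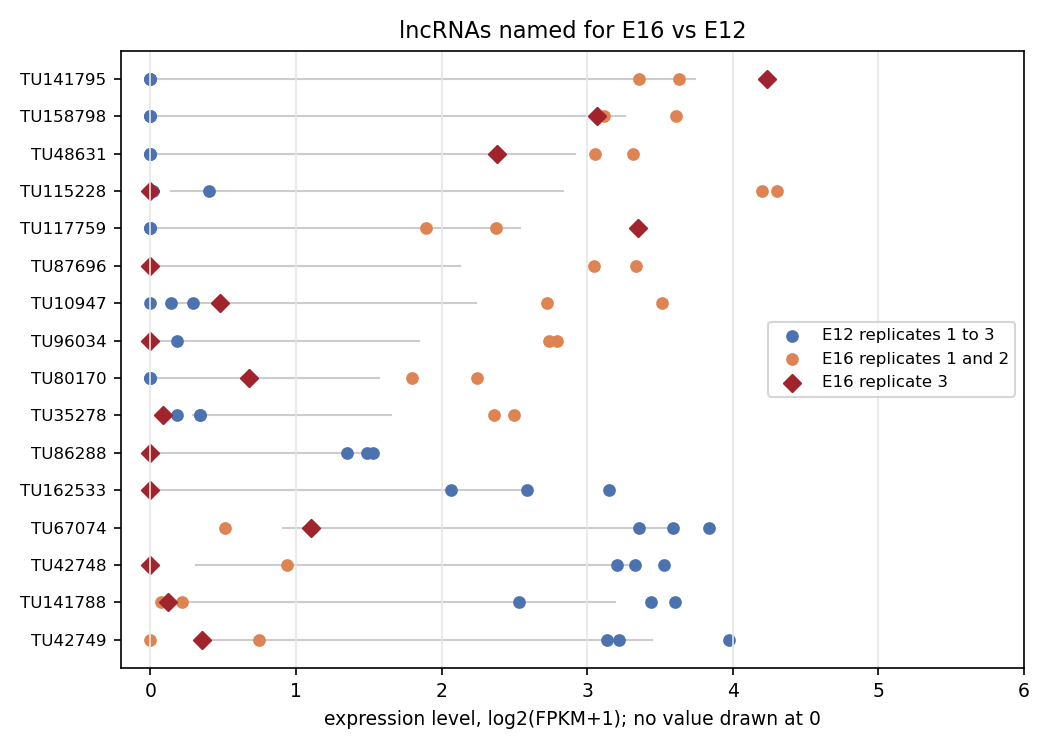
Expression level in log2(FPKM+1) of 16 lncRNAs (rows), those called at the Bonferroni-adjusted p, the largest changes at the Benjamini-Hochberg adjusted p and those called only without E16 replicate 3. Blue points are E12 replicates, orange points E16 replicates 1 and 2 and the red diamond E16 replicate 3, with libraries without a value drawn at 0. In TU115228, TU87696 and TU96034 the diamond lies at 0 and both orange points above 2.

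Absence of a value was common among lncRNAs. Of the 32013 tested, 8614 had a value in all 6 libraries, 173 in all E16 libraries and no E12 library, and 378 in all E12 libraries and no E16 library. The 5 rises came from those 173. Of the 31 falls, 6 came from the 378, 11 from the 8614 and the others from lncRNAs with a value in 1 or 2 of the E16 libraries. As the depth behind a missing value is unknown, a lncRNA without a value is not shown to be absent. The libraries also differed in their total of clean reads, and the part of this in the rises and falls was not tested.

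A set of 10 lncRNAs with primers for qPCR was followed separately, and none was called by limma between E12 and E16. At an unadjusted p of at most 0.05 and at least 2-fold, 2 of the 10 passed, beside 1.49% of all lncRNAs tested. The study had chosen the 10 among lncRNAs that it found differentially expressed in this series, which favours such a result. Of all lncRNAs tested, 28222 had a mean level below 1, so the 1.49% is not a like background. The primer pairs of the 2 with the largest differences are given, each forward primer first, since they are the sequences in the study's supplement that identify these transcripts.
TU50759 forward: cgttggcaaaggggtttctg
TU50759 reverse: acgtggaccataccttgcac
TU178751 forward: gcccactgcagaggtttagt
TU178751 reverse: atgggtgtctgtgccatgtt

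TU50759 had 1.88, 1.83 and 1.51 at E12 and 2.98, 3.06 and 3.67 at E16. The stages did not overlap, with replicate 3 the highest, but the difference of 1.49 ± 0.41 did not pass the threshold (Benjamini-Hochberg adjusted p = 0.257). TU178751 had 5.94, 5.73 and 5.93 at E12 and 4.76, 4.40 and 4.17 at E16, without overlap. Its difference was -1.42 ± 0.48 (adjusted p = 0.331). The spread that entered these tests came from all 7 stages. The SD of TU178751 was 0.94 at D100 and 1.42 at Y3, against 0.11 at E12 and 0.30 at E16. The fit of the E12 and E16 libraries alone did not call TU50759 or TU178751 either. The part of the spread at other stages in these results was not tested.

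TU167089 had 2.12, 1.84 and 1.45 at E12 and 2.87, 3.30 and 3.27 at E16, and TU38242 had 2.74, 2.77 and 2.83 at E12 and 3.30, 3.46 and 3.75 at E16. In both the stages did not overlap and the adjusted p was above 0.45. In TU56811 replicate 3 lowered the difference, with 2.73, 2.62 and 2.49 at E12 and 4.01, 3.55 and 2.22 at E16. The difference was 0.65 ± 0.52 with it (Benjamini-Hochberg adjusted p = 0.83) and 1.17 ± 0.51 without it (adjusted p = 0.42), called in neither fit. TU99158 had 5.55, 5.05 and 5.79 at E12 and 6.14, 5.99 and 4.76 at E16, where replicate 3 was below every E12 library. TU26292 (0.57 ± 0.71), TU45029 (-0.54 ± 0.43), TU166039 (-0.36 ± 0.33) and TU6367 (0.02 ± 0.25) overlapped between the stages.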

How the data were processed

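The authors aligned reads with HISAT to Gallus_gallus-5.0, assembled transcripts with StringTie 1.3.3, computed FPKM with Cufflinks 2.2.1 and StringTie, and deposited log2 values of FPKM plus 1. Deposited mRNA values hold no FPKM between 0 and 0.1, so weaker values are listed at 0. Of the lncRNA values of E12 and E16, 54.5% are missing and were taken as 0. The authors' test used DESeq2 on counts derived from FPKM, which were not used here. Each of the mRNA and lncRNA files has 3 value columns without a stage in their name, which were not used.

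Tests covered the 14558 mRNAs and those 32013 lncRNAs that had a value in at least 2 libraries. They were run in R 4.3.3 with limma 3.58.1 on log2(FPKM+1), with 7 stage means over 18 libraries and a variance trend. A call required a 2-fold change and an adjusted p of at most 0.05. This scale makes changes of weak features look smaller than in FPKM. Replicates are separate birds. The tests were also run on simulated normal values with planted changes. Those values held no missing values and no library set apart, so calls that rest on either were not checked. Further steps used matplotlib 3.10.9, pandas 2.3.3, numpy 2.4.6 and scipy 1.17.1 under Python 3.11.15.

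Named were all Bonferroni calls, the 10 largest rises and falls of mRNAs and 5 of lncRNAs at the Benjamini-Hochberg adjusted p without overlap of the stages, the 5 largest rises and falls called by Bonferroni only without E16 replicate 3, and the lncRNAs that the study names. Lists of marker genes by symbol had been prepared and could not be used. The mRNA ENSGALG00000017926 falls outside this rule and was chosen after its values were seen. The libraries compared, the lists and the rule were chosen with earlier results of these data known. Alternatives were median-ratio scaling, features whose mean FPKM was 1 or more, adding 0.1 instead of 1 to the FPKM, E12 and E16 libraries only, a replicate block, missing values left missing, all lncRNAs, Spearman's rho, no adjustment of p, and leaving out each library.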

Additional observations from a re-analysis of the deposited data

How the results depend on the processing

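With all libraries 23 mRNAs and 5 lncRNAs were called by Bonferroni and 361 and 36 by Benjamini and Hochberg. Leaving out 1 E12 or E16 library gave 4 to 41 mRNAs and 2 to 24 lncRNAs by Bonferroni and 97 to 932 and 14 to 199 by Benjamini and Hochberg. The highest of each range was without E16 replicate 3, and the lowest without E16 replicate 2, except for the mRNAs by Bonferroni (without E12 replicate 1). A fit of the E12 and E16 libraries only gave 3 mRNAs and 0 lncRNAs by Bonferroni and 432 mRNAs and 0 lncRNAs by Benjamini and Hochberg. With library weights, chosen after seeing the data, 661 mRNAs and 8 lncRNAs were called by Bonferroni and 1533 and 112 by Benjamini and Hochberg, with E16 replicate 3 weighted 0.222 and E16 replicate 2 6.15 for mRNAs. At an unadjusted p, 813 mRNAs and 478 lncRNAs were called. With missing lncRNA values left missing, 2 and 5 of the 20641 lncRNAs that could be tested were called. With all lncRNAs tested there were 3 by Bonferroni, and with median-ratio scaling 10 by Benjamini and Hochberg. With 0.1 instead of 1 added to the FPKM, 7 mRNAs rose and 13 fell by Bonferroni. The lncRNAs then had 3 rises and 1 fall by Bonferroni.

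No pairing by replicate number was seen. Deviations of same-numbered libraries correlated with r of -0.07, 0.07 and -0.03, and those of libraries with other numbers with -0.08 to 0.09. With so few libraries per stage, these values cannot show whether a number marks a shared batch. With the replicate block in limma, fitted on the E12 and E16 libraries only, 0 mRNAs and 0 lncRNAs were called at either adjusted p, where the same 6 libraries without the block gave the counts above. The block leaves less information on the spread in a fit of 6 libraries, so the 0 calls do not decide about pairing. At an unadjusted p of at most 0.05 and at least 2-fold the block gave 447 mRNAs higher and 420 lower and 97 lncRNAs higher and 247 lower, against 419 and 408 mRNAs and 113 and 265 lncRNAs without the block.

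E16 replicate 3 departed 2-fold from its stage mates in 2927 mRNAs and 12372 lncRNAs with a pseudocount of 0.1, where the other 5 libraries had 719 to 1173 and 10637 to 11094. Of the lncRNAs whose mean FPKM was 1 or more it departed in 718, and the others in 348 to 369. These were chosen after seeing the data. Leaving out each library gave differences of -0.0890 to 0.60 for TU99158, which changed sign without E12 replicate 2 (-0.0414), E16 replicate 1 (-0.0890) or E16 replicate 2 (-0.0180).

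For TU6367 they were -0.0715 to 0.0912, with a changed sign without E12 replicate 2 (-0.0715) or E16 replicate 3 (-0.0437) and with library weights (-0.0147). The other features named by the rule kept their sign. The cause of these shifts was not tested. Without counts, the error of weak values is unknown.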
